A study of Dicentrarchus labrax with 30 samples.

Results

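Heat shock proteins and chaperonins were described as 125 gene identifiers of 26719 in the count table of European sea bass (Dicentrarchus labrax). They were chosen by symbol: names that begin with HSP, HS90, HSC7, DNAJ, CCT2 to CCT8, TCP1, BAG1 to BAG6 or HSF with a digit. The 125 identifiers carry 89 symbols and were put in 12 classes. The classes hold 4 HSP90, 3 HSP110, 11 HSP70, 16 small HSP, 2 mitochondrial chaperonin, 9 cytosolic chaperonin (CCT), 7 DNAJA, 15 DNAJB, 31 DNAJC, 10 BAG and 6 heat shock factor (HSF) identifiers, and 11 others. Among the others, HSPG2 encodes perlecan, a matrix proteoglycan, and TCP11L1 and TCP11L2 share only the start of their name with TCP1, so these are not chaperones. HSPB11, counted with the small HSPs, is a protein of ciliary transport in mammals.

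Libraries were made from pituitary, from whole brain and from head kidney, a fish organ of blood formation that also houses the interrenal, the source of cortisol. There were 10 libraries per tissue, 5 of bold and 5 of shy fish. Bold fish, 3 males and 2 females, left a sheltered side of a tank early, and shy fish, 2 males and 3 females, left very late or never. The 10 fish were the extremes in the first 3 of 4 such tests over 7 months, were sampled at 478 days after fertilization, and had all been kept at 21 °C in their later life. No heat or other stress treatment was given to either group in the labels, so the members were compared at the level that the fish had when they were sampled.

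Chaperones bind proteins that are unfolded or being made and help them fold. HSP70 proteins bind and release short stretches of a client as they split ATP. DNAJ proteins bring the clients and start the ATP cycle, BAG and HSP110 proteins exchange the nucleotide, HSP90 acts on later folding stages of kinases and steroid receptors, and the CCT ring encloses actin and tubulin. Small HSPs hold unfolded proteins without ATP, and HSF1 switches on many of these genes after heat. Roles are given below as they are known from mammals or yeast.

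Levels are given as CPM, read counts brought to a common library size and scaled by the trimmed mean of M values (TMM). Changes are log2 fold changes with a standard error (SE). This SE was worked back from the edgeR test, as the absolute change divided by the square root of the F statistic. Levels between bold and shy or male and female fish were scaled within a tissue, and levels between tissues over all 30 libraries, so CPM values of these comparisons differ. Gene lengths were not used, so levels are compared between libraries and never between genes. Pituitary libraries held 3808645 to 12550808 counts, brain libraries 7916478 to 20067656 and head kidney libraries 4667992 to 26837997. The members together took 0.851% to 0.933%, 0.385% to 0.975% and 0.701% to 1.08% of these counts, in the same order.

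A filter on low counts left 103 members for testing in pituitary, 106 in brain, 100 in head kidney and 108 over all libraries. There were 98 members that were tested in each tissue and 18 that were tested in no tissue. Those 18 had at most 31 reads in a library, and 2 of them, an HSP30 and DNAJC5B, had no read. They include all 7 HSP30 identifiers, HSP90AA1.1, HSF4 and DNAJC22. Since 25 symbols are carried by 61 identifiers, reads of near-identical copies may have been split between them, and values of single copies are uncertain to that degree. Whether the authors counted by strand is not given in the sources used here, so reads of an overlapping antisense gene cannot be told apart from a member's own.

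Marker genes followed the tissue labels. Pituitary hormone genes, of which 2 identifiers were matched, summed to 1556 to 3348 CPM in pituitary and to at most 0.585 CPM in the other tissues. Neuron markers summed to 5497 to 7162 CPM in brain, and erythroid markers, 4 identifiers, to 144100 to 376700 CPM in head kidney. Of the 30 libraries, 4 stood apart from the rest of their tissue: pituitary shy 1 and shy 2, both from males, and brain shy 1, from a male, and shy 4, from a female. Ribosomal protein genes took 2.7% and 1.67% of counts in pituitary shy 1 and shy 2, against 3.58% to 4.98% in the remaining pituitaries. They took 0.0137% in brain shy 4, whose median Spearman correlation with the rest of the brains was 0.731, and whose astrocyte and radial glia markers were at 165.9 CPM, against up to 2607 CPM in brain. All 4 are of shy fish, so most results that rest on them are given with and without them.

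Between tissues, chaperones of the lumen of the endoplasmic reticulum (ER), where secreted proteins fold, such as HSPA5, HSP90B1 and DNAJC3, were higher in pituitary. In head kidney HSP90BA, HSP70 DLAgn_00038640, HSPA8, CCT2, CCT4 and CCT7 were higher, while HSP90AA1 was lower, and the HSP70 class had 4 members higher and 4 lower. Several DNAJ genes and HSPA4L were high in brain or in brain and pituitary and at or near 0 in head kidney. HSPA12A was highest in brain and lowest in head kidney. To be called, a member had to differ from the average of the remaining tissues by 1 or more on the log2 scale, with an edgeR adjusted p under 0.05. In pituitary, 17 of 108 members were higher and 8 lower, where 25% and 16.3% of all genes tested were higher and lower. In brain, 23 were higher and 11 lower, against 31.2% and 21.2% of all genes. In head kidney, 14 were higher and 29 lower, against 23.6% and 35.3% of all genes. These shares are below the background in each tissue and direction, and 57 members were called in no tissue. The median change of the members was -0.00 in pituitary, 0.02 in brain and -0.20 in head kidney, against 0.04, 0.07 and -0.21 over all genes. Among the 51 members called in at least 1 tissue, the commonest patterns were higher in brain and lower in head kidney, with 12 members, and higher in pituitary and brain and lower in head kidney, with 6. Whole tissues were used, so fewer cells of a type and less RNA per cell cannot be told apart.

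**Figure D1:**
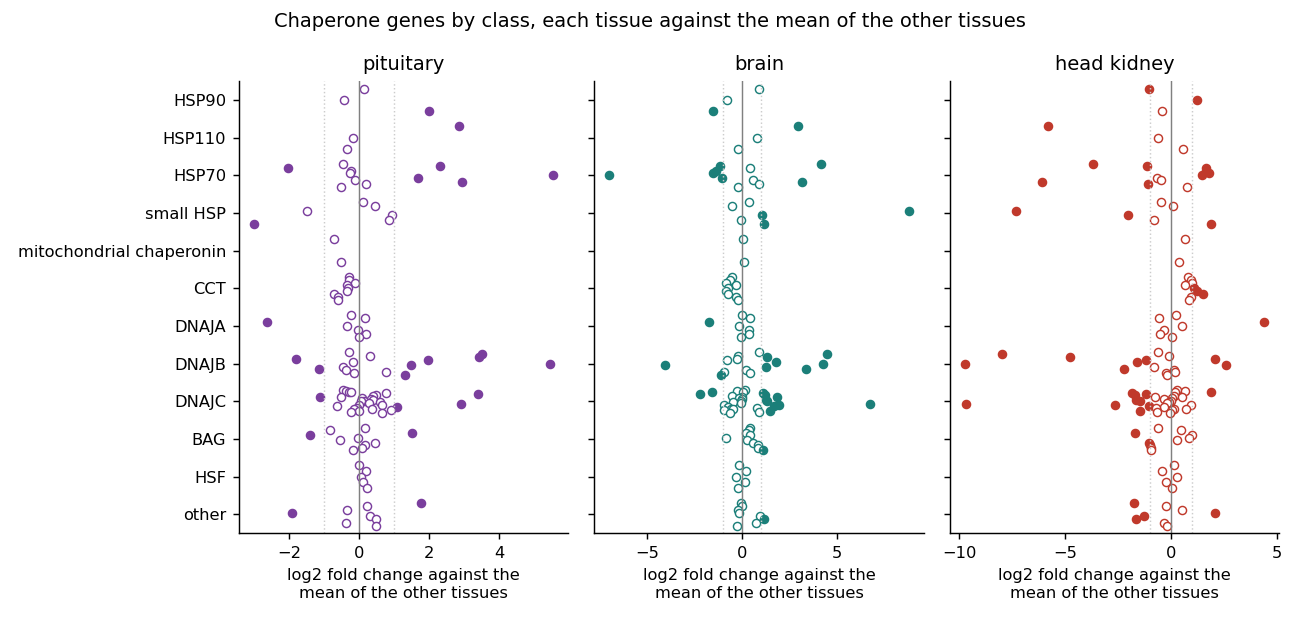
Log2 fold change of each tested chaperone gene (x axis) in pituitary, brain or head kidney against the mean of the other tissues, by chaperone class (y axis). Filled points passed the test, which needs a change past the dotted lines at -1 and 1; all 9 CCT genes lie right of 0 in head kidney and left of 0 in pituitary and brain, and no HSF gene passed in any tissue.

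Members of the ER lumen, with DNAJC1, were grouped by their known place in the cell, a choice made after their values had been seen, so that their counts are a description. Of 14 tested, 8 were higher and 0 lower in pituitary, where 25% and 16.3% of all genes were. The 8 include DNAJB9 DLAgn_00092300, whose median was higher in head kidney (39.9 CPM) than in pituitary (24.8 CPM). In brain 0 were higher and 6 lower, against 31.2% and 21.2%, and in head kidney 1 was higher and 4 lower, against 23.6% and 35.3%. DNAJ proteins of the ER membrane (DNAJB12, DNAJB14, DNAJC14, DNAJC16 and DNAJC18, 7 identifiers) had another pattern. Of these 0 were called in pituitary, 4 were higher in brain and 3 lower in head kidney. With them the ER set of 21 had 8 higher and 0 lower in pituitary, 4 and 6 in brain, and 1 and 7 in head kidney. HSPA5, the ER HSP70 known as BiP, had 207 to 426 CPM in pituitary (median 340), against 7.40 to 120 CPM in brain (median 102) and 81.9 to 231 CPM in head kidney (median 100.3). Its log2 fold change in pituitary was 1.67 (SE 0.221, edgeR adjusted p 1.5e-07), and it was lower in brain at -1.03. The lowest brain value was that of shy 4, and without the 4 libraries that stood apart HSPA5 was at -0.89 in brain and not called. HSP90B1, the ER HSP90, had 438 to 640 CPM in pituitary (median 499.8), against 9.24 to 131 CPM in brain (median 108) and 105 to 336 CPM in head kidney (median 147). Its change was 1.98 in pituitary (SE 0.211, edgeR adjusted p 2.98e-09) and -1.54 in brain, and no pituitary library overlapped with the other tissues.

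Of the other members of the ER lumen, DNAJC3, HSPA13, DNAJB11, HSP47 DLAgn_00030110 and DNAJB9 DLAgn_00092300 and DLAgn_00207700 were also called higher in pituitary. All but DNAJB9 DLAgn_00092300 had their highest median there. DNAJC3, which binds unfolded proteins in the ER and restrains the kinase PERK, had 62.4 to 113 CPM in pituitary (median 84.4), against 2.89 to 7.99 CPM in brain and 8.08 to 19.5 CPM in head kidney. Its change of 3.38 (SE 0.131, edgeR adjusted p 1.42e-18) was the highest of the ER members in pituitary, and its change in brain was -2.21. HSPA13, an HSP70 of the microsomes, had 38.9 to 62.5 CPM in pituitary, against 8.30 to 13.9 CPM in brain and 9.6 to 14.4 CPM in head kidney, a change of 2.31 (SE 0.0764). DNAJB11, a co-chaperone of BiP, had 70.6 to 104 CPM in pituitary, against 15.6 to 25.7 CPM in brain and 13.4 to 35.2 CPM in head kidney, a change of 1.97. HSP47 DLAgn_00030110, by its symbol the chaperone of collagen, had 5.49 to 9.94 CPM in pituitary, against 1.39 to 5.04 CPM in brain and 0.146 to 3.79 CPM in head kidney, with changes of 1.77 in pituitary and -1.74 in head kidney.

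Copies of the BiP partner DNAJB9 differed in their pattern. DNAJB9 DLAgn_00092300 had 14.8 to 37.8 CPM in pituitary, against 0.925 to 3.36 CPM in brain and 35.2 to 56.0 CPM in head kidney. It was called in each tissue, at 1.47 in pituitary, -4.08 in brain and 2.60 in head kidney, and its brain values lay below those of both other tissues. DNAJB9 DLAgn_00207700 was higher in pituitary (1.29) and lower in brain (-1.12), and DNAJB9 DLAgn_00170390 was not called, with its lowest median in pituitary. DNAJC1, at 0.91 in pituitary, did not reach the fold threshold, but reached 1.06 without the libraries that stood apart. The 3 copies of DNAJC10, a reductase of the ER, and HSP47 DLAgn_00039080 were not called, though their medians, like that of DNAJC1, were highest in pituitary.

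**Figure D2:**
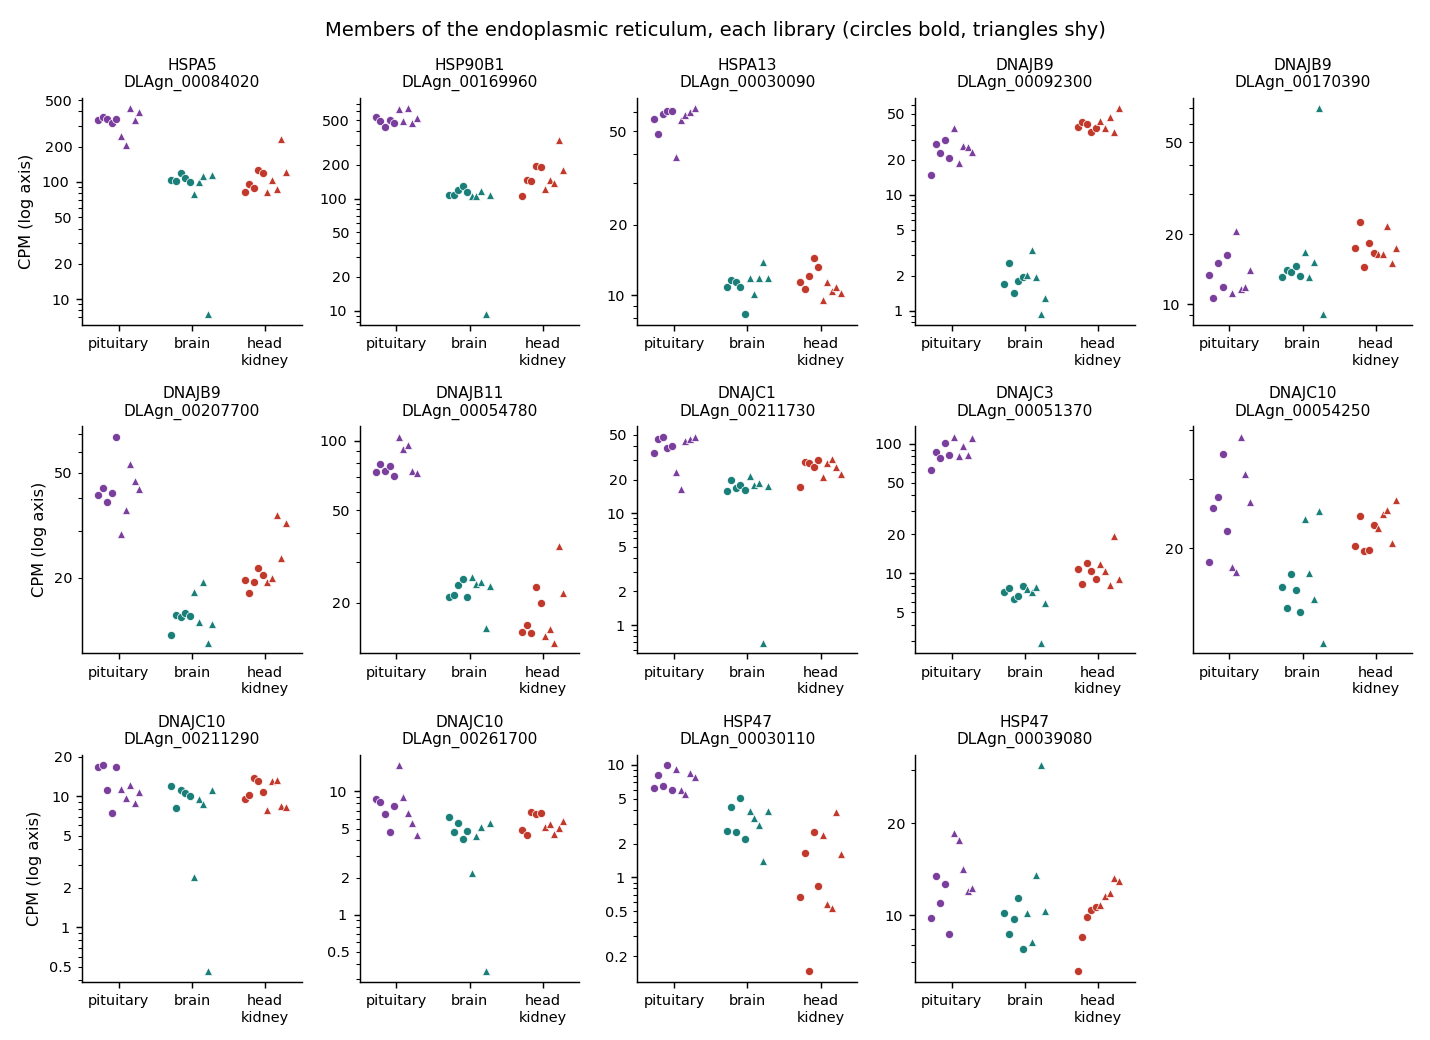
CPM on a log axis (y) of the 14 tested ER members in each of the 10 libraries of pituitary, brain and head kidney (x), with circles for bold and triangles for shy fish. HSPA5, HSP90B1, HSPA13, DNAJC3 and DNAJB11 are highest in pituitary, DNAJB9 DLAgn_00092300 is at 0.925 to 3.36 CPM in brain, and the low brain triangle of HSPA5 (7.40 CPM) and HSP90B1 (9.24 CPM) is brain shy 4.

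A list of ER folding and stress genes that are not members was read beside them. Of 25 tested, 17 were higher and 2 lower in pituitary, where 25% and 16.3% of all genes were. There were 4 higher and 13 lower in brain, against 31.2% and 21.2%, and 1 higher and 6 lower in head kidney, against 23.6% and 35.3%. Their median change was 1.90 in pituitary, -1.49 in brain and -0.30 in head kidney. XBP1, the transcription factor of the unfolded protein response, was at 2.58 in pituitary and -2.34 in brain. CRELD2 was at 2.53 and -2.04, and PDIA4, a disulfide isomerase, at 2.16 and -1.49. Outside that list, HYOU1, the nucleotide exchange factor of BiP, was at 2.30 in pituitary and -1.69 in brain. Within it, DDIT3, a stress-induced transcription factor, had another pattern, at 1.86 in brain and -2.62 in head kidney. All these changes had an edgeR adjusted p under 0.05.

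The cytosolic HSP90 and HSP70 members with the most reads were higher in head kidney. HSP90BA had 3490 to 4408 CPM in head kidney (median 3925), against 1581 to 2136 CPM in pituitary (median 1801) and 259 to 1985 CPM in brain (median 1674). Its change in head kidney was 1.21 (SE 0.169, edgeR adjusted p 2.83e-07), with no overlap of libraries. HSP90AA1, in mammals the more stress-inducible cytosolic HSP90, went the other way, with 16.5 to 50.2 CPM in head kidney, against 40.6 to 109 CPM in pituitary and 29.7 to 110 CPM in brain, a change of -1.02 in head kidney.

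HSP70 DLAgn_00038640, the HSP70 with the most reads, had 1986 to 2998 CPM in head kidney (median 2358), against 614 to 1105 CPM in pituitary (median 990) and 116 to 748 CPM in brain (median 558). It was called in head kidney at 1.78 and in brain at -1.51. HSP70 DLAgn_00038620 had 59.7 to 197 CPM in head kidney, against 29.8 to 84.8 CPM in pituitary and 0.462 to 53.5 CPM in brain, with changes of 1.62 in head kidney and -1.38 in brain. HSPA8, the constitutive HSP70 that also strips clathrin from vesicles, had 17.8 to 32.0 CPM in pituitary, against 25.2 to 87.4 CPM in brain and 90.1 to 187 CPM in head kidney. It was lower in pituitary at -2.04 and higher in head kidney at 1.64. HSP70-3 had 24.5 to 40.9 CPM in pituitary, 1.84 to 6.72 CPM in head kidney and 0 to 0.244 CPM in brain, where 10 libraries held 13 reads in all, against 2604 reads in pituitary.

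Within the HSP70 and HSP110 classes, HSPA12A and HSPA4L were lowest in head kidney. HSPA12A, a distant HSP70 relative with high levels in mammalian brain, had 108 to 289 CPM in brain (median 127), against 12.1 to 25.1 CPM in pituitary and 2.38 to 4.75 CPM in head kidney, a change of 4.15 in brain (SE 0.141, edgeR adjusted p 8.05e-20). HSPA4L, of the HSP110 class, had 0.277 to 1.90 CPM in head kidney, against 37.7 to 51.7 CPM in pituitary and 5.32 to 57.0 CPM in brain. HSPA4L was at -5.81 in head kidney, 2.84 in pituitary and 2.97 in brain. HSPA4A DLAgn_00110290, the HSP110 with the most reads, was not called in any tissue, nor was HSPA9, the mitochondrial HSP70. HSPA12A and HSPA4L are named here after their values had been seen.

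Of the 9 CCT genes, 3 were higher and 0 lower in head kidney, where 23.6% and 35.3% of all genes were, and 0 were called in pituitary or brain. The fitted changes of all 9 were positive in head kidney (median 0.94, against -0.21 over all genes) and negative in pituitary (median -0.36) and brain (median -0.63). CCT2 had 273 to 429 CPM in head kidney (median 352), against 39.8 to 173 CPM in pituitary and 2.31 to 178 CPM in brain, a change of 1.49 (SE 0.289). CCT4 was at 1.20 and CCT7 at 1.09. Without the 4 libraries that stood apart CCT4 was at 0.98 and not called, and with size factors by median of ratios CCT7 was at 0.98 and not called. CCT6A, the subunit with the most reads, was at 0.92 in head kidney, with 312 to 427 CPM, against 166 to 222 CPM in pituitary and 10.6 to 256 CPM in brain, and TCP1, the alpha subunit, was at 0.98. The mitochondrial chaperonin genes HSPD1 and HSPE1 were not called. HSPD1 had medians of 43.3, 59.1 and 60.4 CPM in pituitary, brain and head kidney.

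Members of the small HSP class were low, and 10 of 16 were not tested. HSPB1 DLAgn_00084730, the small HSP with the most reads, was a brain gene in these libraries, with 4.85 to 46.4 CPM in brain (median 32.8), against 0 to 0.831 CPM in pituitary and 0 to 0.300 CPM in head kidney. There were 5163 reads in brain, 25 in pituitary and 1 in head kidney. Per read counted, brain had 6169 times the reads of head kidney, with an exact 95% interval of 1107 to 243700 that covers counting error only. The other tested copy, HSPB1 DLAgn_00039710, was not called in any tissue, with medians of 5.41, 8.18 and 5.48 CPM in pituitary, brain and head kidney. HSPB7 was lower in pituitary at -3.02, with 0 to 1.82 CPM, against 0.462 to 5.27 CPM in brain and 1.88 to 11.0 CPM in head kidney. HSPB11 was at 1.09 in brain, where its highest value, 11.8 CPM, was that of shy 4, and at -2.02 in head kidney. Without the libraries that stood apart it was at 0.87 in brain and not called.

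Among the DNAJ genes, several were at or near 0 in head kidney. Of 15 DNAJB members, 6 were higher and 2 lower in pituitary, where 25% and 16.3% of all genes were. In brain 6 were higher and 2 lower, against 31.2% and 21.2%, and in head kidney 2 were higher and 6 lower, against 23.6% and 35.3%. Of 29 tested DNAJC members, 3 were higher and 1 lower in pituitary, 9 and 2 in brain, and 1 and 9 in head kidney, which is at or below the share of all genes in each case. DNAJB5 DLAgn_00083020, a cytosolic DNAJB1 relative, had 38.2 to 433 CPM in pituitary (median 118), against 3.81 to 202 CPM in brain (median 76.4) and 0 to 0.352 CPM in head kidney, where 10 libraries held 13 reads. DNAJB4 had 4.05 to 16.6 CPM in pituitary and 1.62 to 20.7 CPM in brain, against at most 0.335 CPM in head kidney. DNAJB13, in mammals a protein of the radial spokes of cilia and sperm tails, had 1.18 to 4.92 CPM in pituitary, 0.579 to 1.26 CPM in brain and at most 0.265 CPM in head kidney.

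DNAJC5 DLAgn_00127290, by its symbol the cysteine string protein of synaptic vesicles, had 2.2 to 74.5 CPM in brain (median 66.9), 2.82 to 14.3 CPM in pituitary (median 10.1) and 0 to 0.146 CPM in head kidney. Its reads were 10172 in brain, 944 in pituitary and 2 in head kidney. Per read counted, brain had 6077 times the reads of head kidney (exact 95% interval 1682 to 50190) and pituitary 900 times (248 to 7441). The copy DNAJC5 DLAgn_00223440 had 29.0 to 114 CPM in brain, against 19.6 to 43.0 CPM in pituitary and 8.40 to 16.5 CPM in head kidney, with changes of 1.49 in brain and -1.47 in head kidney. DNAJC5G DLAgn_00073250, the DNAJC with the most reads, was at 1.86 in brain and -1.12 in pituitary. DNAJC6, known as auxilin, which uncoats clathrin vesicles with HSPA8, had 62.8 to 191 CPM in brain, against 27.5 to 45.8 CPM in pituitary and 20.3 to 43.9 CPM in head kidney, a change of 1.69. Both copies of DNAJC16 were higher in brain, at 1.98 and 1.35, and lower in head kidney, at -2.63 and -1.48. DNAJC5 DLAgn_00223440, DNAJC6 and DNAJC16 were chosen after their values had been seen.

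Fewer DNAJ genes were higher in head kidney. DNAJA4 had 96.5 to 208 CPM in head kidney (median 151), against 2.30 to 16.3 CPM in pituitary (median 5.63) and 3.12 to 13.8 CPM in brain (median 9.30). Its change of 4.40 in head kidney (SE 0.186, edgeR adjusted p 4.76e-18) was the largest increase of a member there, and no library overlapped. DNAJB2, in mammals a chaperone of the nervous system, had 79.7 to 216 CPM in head kidney, against 18.9 to 36.9 CPM in pituitary and 34.1 to 67.0 CPM in brain, a change of 2.07. The other 6 DNAJA identifiers were not called in any tissue. DNAJA2 DLAgn_00167460, the most read of them, had medians of 161, 206 and 123 CPM in pituitary, brain and head kidney. DNAJB1, a heat-inducible partner of HSP70, had medians of 21.6, 10.9 and 16.7 CPM and was not called.

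Among the BAG genes, BAG2 was higher in pituitary (1.49), with 5.82 to 9.30 CPM, against 3.15 to 5.66 CPM in brain and 0.511 to 3.33 CPM in head kidney. BAG5 was lower in pituitary (-1.41), with 17.9 to 36.8 CPM, against 17.1 to 96.6 CPM in brain and 37.7 to 122 CPM in head kidney. BAG6 DLAgn_00249160 was at 1.12 in brain, but its highest brain value, 224 CPM, was that of shy 4, and it was at 0.62 and not called without the libraries that stood apart. BAG6 DLAgn_00056830, the BAG gene with the most reads, was at 0.87 in head kidney and -0.83 in brain, short of the fold threshold, with medians of 62.7, 42.6 and 93.2 CPM in pituitary, brain and head kidney. BAG3, a stress-induced BAG protein, was not called. HSPB11, BAG2, BAG5 and BAG6 DLAgn_00249160 are named after their values had been seen. None of the 5 tested HSF genes was called: HSF1 DLAgn_00238840 had medians of 36.8, 27.5 and 39.0 CPM in pituitary, brain and head kidney, and HSF2 DLAgn_00261850 of 18.0, 19.5 and 16.3 CPM. Of the others, TCP11L2 DLAgn_00096460 was higher in head kidney (2.05), with 162 to 338 CPM, against 28.7 to 43.5 CPM in pituitary and 57.8 to 109 CPM in brain.

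Without the 4 libraries that stood apart the counts were 18 higher and 8 lower in pituitary, 25 and 10 in brain, and 14 and 30 in head kidney. All 25 calls in pituitary, 29 of 34 in brain and 42 of 43 in head kidney were shared with the counts over all libraries. Scaling by median of ratios moved the all-gene median by 0.11 (brain) and -0.11 (head kidney), and gave 28 higher and 10 lower members in brain and 13 and 31 in head kidney. The shares of all genes called in these alternatives are not given here, so these counts have no background beside them.

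Between bold and shy fish, no member was called in any tissue. The comparison asks which chaperone genes differ in level between fish that differ in risk taking. In pituitary DNAJB5 DLAgn_00083020 and HSP70 DLAgn_00038620 had higher means in bold fish. In head kidney DNAJC11 DLAgn_00127750, HSP47 DLAgn_00039080, HSPA4A DLAgn_00045090 and DNAJC9 had all their bold values below all their shy values. Of all genes, 1.6% were lower there without overlap. The other copies of DNAJC11, HSP47 and HSPA4A overlapped. At an edgeR adjusted p under 0.05, 0 of 103 members were called in pituitary, 0 of 106 in brain and 0 of 100 in head kidney, against 0%, 0.00536% and 0.00635% of all genes. At an unadjusted p under 0.05, 11 members were higher and 6 lower in bold pituitary, where 10.7% and 7.34% of all genes were. In brain this was 1 member in each direction, against 0.515% and 0.848% of all genes. In head kidney 4 were higher and 10 lower, against 5.81% and 5.4% of all genes. The members' shares lie near the background in most cases. The exception is the lower direction in head kidney, with 10 of 100 members against 5.4% of all genes. This count is not given without head kidney shy 4, whose HSP110, HSP70, mitochondrial chaperonin and CCT shares were the highest of the tissue. DESeq2 called 3 members in pituitary, DNAJB5, HSP70 DLAgn_00038620 and CCT4, and 0 in the other tissues. The share of all genes that DESeq2 called is not given here, so the 3 cannot be set against a background. Without pituitary shy 1 and shy 2, the counts in pituitary were 3 higher and 2 lower, against 2.44% and 1.66% of all genes. CCT4, by edgeR 1.22 with them, was then at -0.04. No shy male is left in pituitary then, so each such bold minus shy change compares 2 bold females with 3 shy females. Bold males do not enter these changes. Without brain shy 1 and shy 4, the counts were 3 higher and 1 lower in brain, against 1.78% and 1.5%.

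In pituitary the smallest p was that of DNAJB5 DLAgn_00083020. It had 353, 127, 492.5, 156 and 300.1 CPM in bold pituitaries, against 85.6, 44.1, 80.9, 77.9 and 142 CPM in shy ones. Only bold 2 lay within the range of the shy libraries. The log2 fold change was 1.79 (SE 0.443, edgeR adjusted p 0.229), and the adjusted p ranged from 0.0013, by DESeq2, to 0.99 over the alternatives. Without shy 1 and shy 2, the libraries that stood apart, it was 1.34, from 2 bold and 3 shy females. HSP70 DLAgn_00038620 had 92.3, 79.8, 41.2, 96.3 and 75.5 CPM in bold pituitaries, against 34.7, 60.6, 35.9, 46.0 and 49.8 CPM in shy ones. Bold 3 lay among the shy values and the other bold libraries lay above them, a change of 0.78 (SE 0.224, edgeR adjusted p 0.229, DESeq2 adjusted p 0.0431). It was 1.10 without the pair that stood apart, again from females only. The HSP70 with the most reads, DLAgn_00038640, averaged 1141 ± 105 CPM in bold pituitaries and 1025 ± 205 CPM in shy ones (SD, n = 5 each).

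DNAJC5 DLAgn_00127290 was the member whose bold pituitaries did not overlap with shy ones, 1 of 103 higher, where 1.11% of all genes were higher and 1.03% lower without overlap. It had 14.4, 13.6, 16.3, 13.0 and 15.1 CPM in bold pituitaries, against 9.66, 3.26, 9.88, 9.96 and 9.30 CPM in shy ones, a change of 0.87 (SE 0.287, edgeR adjusted p 0.23). Without the pair that stood apart it was 0.49. CCT3 DLAgn_00251910 had 95.0, 98.3, 81.5, 74.5 and 98.8 CPM in bold pituitaries, against 41.0, 16.8, 57.5, 85.7 and 83.7 CPM in shy ones. Its low values were those of shy 1, shy 2 and shy 3, and its change of 0.92 (SE 0.348) was 0.16 without shy 1 and shy 2.

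Among members with lower means in bold pituitaries, DNAJC18 had 50.3, 41.6, 54.3, 46.6 and 48.7 CPM in bold, against 72.0, 78.2, 53.0, 55.0 and 55.7 CPM in shy fish. The change of -0.41 (SE 0.126, edgeR adjusted p 0.229) was -0.18 without shy 1 and shy 2, which held the highest values. BAG1, a nucleotide exchange factor of HSP70, averaged 26.8 ± 3.14 CPM in bold pituitaries, against 33.6 ± 4.87 CPM in shy ones (-0.36). HSP47 DLAgn_00039080 averaged 12.7 ± 2.23 CPM against 17.1 ± 3.69 CPM (-0.47), and TCP11L1 81.4 ± 8.35 CPM against 96.5 ± 9.81 CPM (-0.28), each SD over 5 libraries. The highest BAG1 value, 42 CPM, was that of shy 1, and the next shy value was 33.2 CPM. The highest HSP47 and TCP11L1 values, 21.7 and 110 CPM, were also of shy males, so of shy 1 or shy 2. These changes are not given without shy 1 and shy 2. Endothelial markers summed to 227 to 686 CPM in bold and 151 to 330 CPM in shy pituitaries, and pituitary hormones to 2219 to 3348 CPM and 1556 to 2996 CPM. The part of these cell types in the differences was not tested.

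**Figure D3:**
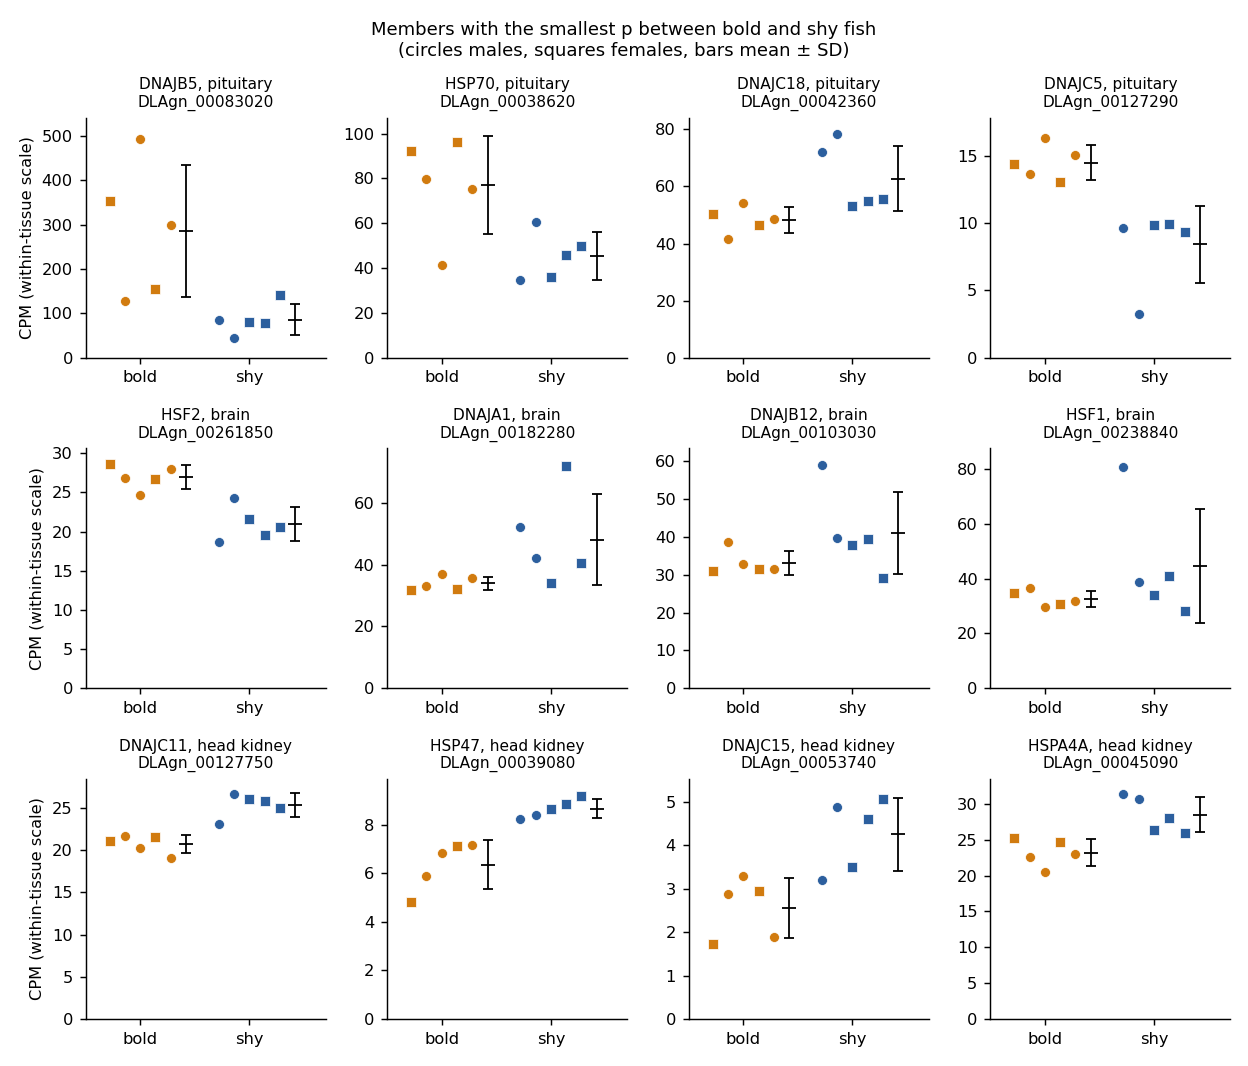
CPM scaled within the tissue (y axis, from 0) of the 4 members with the smallest p in pituitary, brain and head kidney, for bold (left) and shy (right) fish; circles are males, squares are females, and bars are mean ± SD of 5 libraries. DNAJB5 DLAgn_00083020 and HSP70 DLAgn_00038620 in pituitary reach 492.5 and 96.3 CPM in bold fish. DNAJC11 DLAgn_00127750, HSP47 DLAgn_00039080 and HSPA4A DLAgn_00045090 in head kidney do not overlap between the groups.

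In brain, the heat shock factor HSF2 DLAgn_00261850 had 28.7, 26.9, 24.7, 26.7 and 27.9 CPM in bold fish, against 18.6, 24.3, 21.6, 19.6 and 20.6 CPM in shy fish. The groups did not overlap, 1 of 106 members higher, where 0.52% of all genes were higher and 0.494% lower without overlap. The change was 0.37 (SE 0.153, edgeR adjusted p 0.888), and 0.28 without shy 1 and shy 4. DNAJB5 DLAgn_00083020 had 252, 74.4, 157, 99.8 and 178 CPM in bold brains, against 50.5, 77.2, 92.0, 4.30 and 101 CPM in shy ones, and the lowest was shy 4. Its change of 1.26 (SE 0.678) was 0.85 without shy 1 and shy 4. HSP70 DLAgn_00038620 had 56.1, 60.8, 37.1, 66.7 and 47.6 CPM in bold brains, against 20.6, 51.7, 31.1, 0.522 and 33.8 CPM in shy ones, a change of 0.96 (SE 0.744) that was 0.47 without that pair.

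DNAJA1 DLAgn_00182280, a cytosolic partner of HSP70, had 31.8, 33.1, 36.9, 32.2 and 35.5 CPM in bold brains, against 52.0, 42.1, 34.0, 71.9 and 40.4 CPM in shy ones. Its change of -0.51 (SE 0.221, edgeR adjusted p 0.888) was -0.23 without shy 1 and shy 4, which held the highest values. The changes of HSF1 DLAgn_00238840 (-0.47), DNAJB12 DLAgn_00103030 (-0.35) and BAG6 DLAgn_00249160 (-0.95) were -0.07, -0.15 and -0.20 without that pair. BAG6-A (1.23) and HSPG2 (0.26) were at 0.49 and 0.19. BAG6-A had at most 2.21 CPM.

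In head kidney, 4 members were lower without overlap and 0 higher, where 1.6% of all genes were lower and 1.41% higher. DNAJC11 DLAgn_00127750, a protein of the mitochondrial cristae, had 21.0, 21.7, 20.3, 21.5 and 19.0 CPM in bold head kidneys, against 23.1, 26.7, 26.1, 25.9 and 24.9 CPM in shy ones (-0.28, SE 0.0887, edgeR adjusted p 0.338). HSP47 DLAgn_00039080 had 4.801, 5.87, 6.82, 7.12 and 7.17 CPM in bold head kidneys, against 8.25, 8.39, 8.63, 8.86 and 9.20 CPM in shy ones (-0.45, SE 0.149). HSPA4A DLAgn_00045090, of the HSP110 class, had 25.2, 22.6, 20.5, 24.7 and 23.0 CPM in bold head kidneys, against 31.4, 30.7, 26.4, 28.1 and 26.0 CPM in shy ones (-0.30, SE 0.101). DNAJC9, which in mammals carries histones with HSP70, had 18.2 to 20.2 CPM in bold and 20.6 to 24.1 CPM in shy fish (-0.26). In each of these 4 members every bold value lies under every shy value.

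DNAJC15, a protein of mitochondrial import, averaged 2.55 ± 0.691 CPM in bold head kidneys, against 4.25 ± 0.849 CPM in shy ones (-0.75, SE 0.251). The highest bold value, 3.29 CPM, lay above the lowest shy value, 3.21 CPM. Of members with higher means in bold head kidneys, HSP70 DLAgn_00038620 had 96.1, 127, 70.9, 135 and 103 CPM, against 45.6, 107, 57.9, 69.2 and 71.0 CPM in shy ones (0.60, SE 0.236, edgeR adjusted p 0.405). The shy value of 107 CPM lay within the bold range. The HSP70 with the most reads, DLAgn_00038640, had a lower mean in bold head kidneys, 1638 ± 200 CPM against 1818 ± 148 CPM (-0.15). DNAJC27, which carries a small GTPase domain, averaged 8.54 ± 2.56 CPM in bold head kidneys, against 5.08 ± 2.02 CPM in shy ones (0.76). HSF2 DLAgn_00261850 averaged 12.6 ± 1.07 CPM against 10.2 ± 1.18 CPM (0.29), and HSF1 DLAgn_00262580 25.3 ± 1.90 CPM against 21.3 ± 2.90 CPM (0.26). The copy HSF2 DLAgn_00237750 was at 0.28. HSF1 DLAgn_00238840, the HSF with the most reads, went the other way, with 26.8 ± 2.01 CPM against 30.6 ± 6.34 CPM (-0.17). B cell markers summed to 629 to 1103 CPM in bold and 369 to 671 CPM in shy head kidneys, and erythroid markers to 201600 to 270700 CPM and 144100 to 376700 CPM. Their part in the differences was not tested.

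By class, the medians of the bold minus shy change were close to 0 in most cases. The members' median was 0.02 in pituitary, 0.04 in brain and -0.08 in head kidney, against 0.02, 0.01 and -0.01 over all genes. The CCT class had 8 of 9 positive changes in pituitary (median 0.34) and 8 of 9 negative in head kidney (median -0.19). Without pituitary shy 1 and shy 2, and so between females only, 3 of 9 CCT changes in pituitary were positive and the median was -0.03. In brain, 8 of 9 were positive (median 0.11), and 2 of 9 without shy 1 and shy 4 (median -0.06). HSP110, with 3 members, had a median of -0.12 in pituitary, 0.26 in brain and -0.28 in head kidney, and of 0.05 in pituitary and -0.09 in brain without those libraries. CCT genes took 0.137% ± 0.00584 of counts in bold pituitaries and 0.118% ± 0.0242 in shy ones, and 0.145% ± 0.0115 and 0.154% ± 0.0432 in bold and shy head kidneys (SD, n = 5 each). Without head kidney shy 4, at 0.229%, the shy mean was 0.136% ± 0.0135 over 4 libraries, below that of bold head kidneys. These shares were not scaled by TMM, as the changes were, and depend on the other genes in a library. So the order of the shares without shy 4 does not give the direction of the CCT changes without it.

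**Figure D4:**
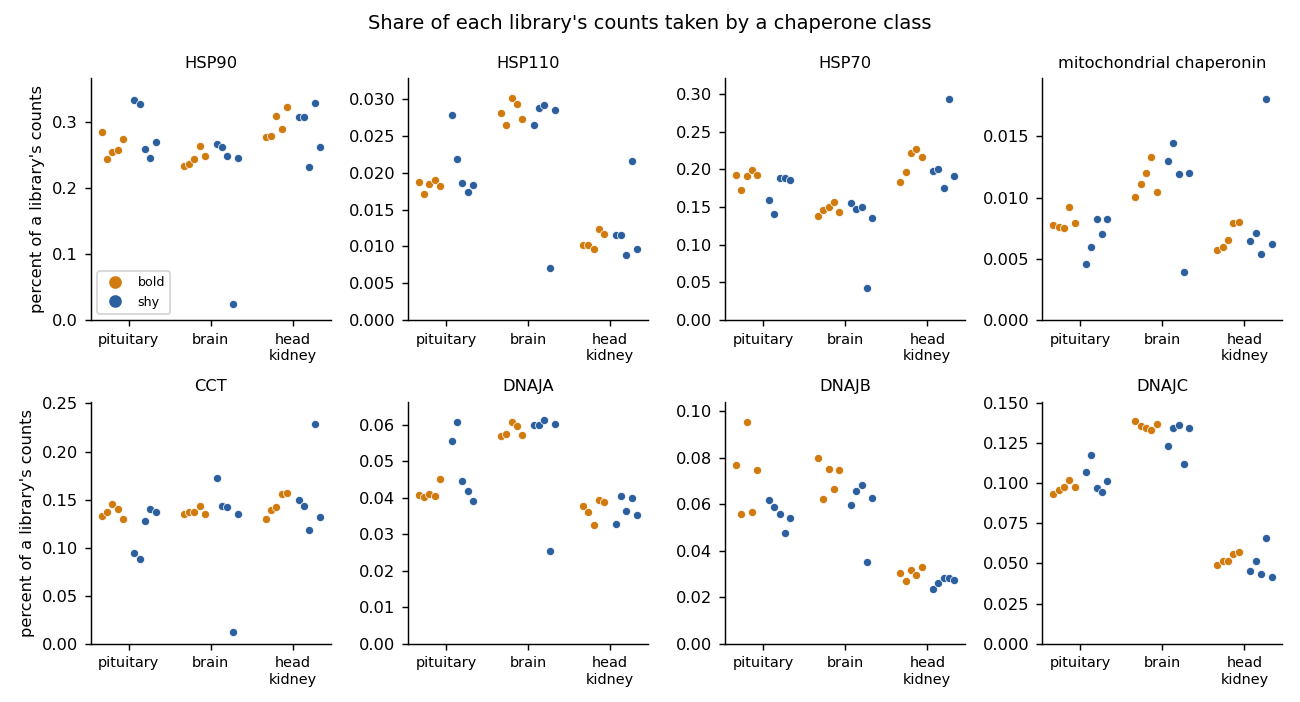
Percent of a library's counts (y axis, from 0) taken by each of 8 chaperone classes in pituitary, brain and head kidney (x axis), each point a library, bold in orange and shy in blue. In brain the low blue point of HSP90 (0.0245%), HSP70 (0.043%) and CCT (0.012%) is shy 4, and in head kidney the high blue point of CCT (0.229%) and HSP70 (0.293%) is shy 4.

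The bold minus shy change was next compared between tissues, and no member was called. In the fit of all libraries 0 of 108 members were called in each of the 3 contrasts between tissues, where 0%, 0% and 0% of all genes were called (pituitary minus head kidney, pituitary minus brain, head kidney minus brain). At an unadjusted p under 0.05, 1 member was higher and 2 lower in pituitary minus head kidney, against 2.89% and 2.06% of all genes. There were 1 and 1 in pituitary minus brain, against 4.16% and 1.05%, and 7 and 1 in head kidney minus brain, against 5.89% and 1.19%. DESeq2 called 0 members in each of these contrasts, which share libraries with each other. HSF2 DLAgn_00261850 had the smallest p in pituitary minus head kidney (-0.48, SE 0.189, edgeR adjusted p 0.894) and in pituitary minus brain (-0.48, SE 0.188, edgeR adjusted p 0.929). Next in pituitary minus head kidney were BAG1 (-0.51) and DNAJB9 DLAgn_00207700 (0.57). Next in pituitary minus brain were TCP11L2 DLAgn_00208680 (0.79) and DNAJA2 DLAgn_00167460 (-0.42). In head kidney minus brain, the smallest p were those of TCP11L2 DLAgn_00208680 (0.94, edgeR adjusted p 0.676), DNAJC14 (0.76) and BAG6 DLAgn_00249160 (1.18). In brain shy 4 these were at 306, 99.8 and 224 CPM in that fit, the highest of the brains, and without the 4 libraries that stood apart their differences were 0.35, 0.26 and 0.13. Those of HSF2 were -0.50 and -0.47, BAG1 was at -0.43, DNAJB9 at 0.41, TCP11L2 in pituitary minus brain at 0.17 and DNAJA2 at -0.02. The counts were then 1 higher and 4 lower, 0 and 1, and 2 and 3, again with 0 called.

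Between males and females, no member was called in any tissue either. The sex coefficient came from the same fits, with 5 males and 5 females a tissue, and called 0 of 103, 0 of 106 and 0 of 100 members, against 0%, 0% and 0% of all genes in pituitary, brain and head kidney. At an unadjusted p under 0.05, 9 members were higher and 6 lower in male pituitaries, where 5.85% and 7.69% of all genes were. In brain this was 0 and 0, against 0.263% and 0.215%, and in head kidney 3 and 1, against 1.57% and 2.01%. DESeq2 also called 0 members in each tissue. Without the libraries that stood apart, 4 were higher and 1 lower in pituitary, against 0.985% and 0.888% of all genes. In brain 0 were then higher and 1 lower, against 1.67% and 1.64%. No shy male is left in pituitary in that case, so the sex change there compares 3 bold males with 2 bold females.

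DNAJB8, which in mammals suppresses protein aggregates, had the smallest p between the sexes in pituitary. It had 59.5, 43.9, 43.1, 49.1 and 46.5 CPM in males, against 38.6, 33.3, 29.8, 25.1 and 30.3 CPM in females (0.61, SE 0.147, edgeR adjusted p 0.363). BAG5, an exchange factor of HSP70, had 31.3, 36.9, 42.1, 31.4 and 39.3 CPM in male pituitaries, against 29.2, 20.3, 21.4, 25.4 and 25.5 CPM in female ones (0.53, SE 0.137, edgeR adjusted p 0.363). DNAJA1 DLAgn_00182280 averaged 39.4 ± 10.8 CPM in males, against 29.5 ± 2.56 CPM in females (0.47). BAG6 DLAgn_00237010 averaged 4.21 ± 1.59 CPM in males, against 6.77 ± 2.201 CPM in females (-0.89). Without shy 1 and shy 2, both male, DNAJB8 was at 0.42, BAG5 at 0.46, DNAJA1 at 0.30 and BAG6 at -0.67. These are changes between 3 bold males and 2 bold females.

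CCT4 had 27.4, 19.3, 142, 134 and 133 CPM in male pituitaries, against 140.1, 148, 147, 152 and 151 CPM in female ones (-1.34, SE 0.483). The low male values were those of shy 1 and shy 2, as for DNAJC2, a chaperone at the ribosome, with 19.3 and 27.5 CPM there and 39.8 to 49.2 CPM in the other pituitaries (-0.48). Without these libraries, and so among bold fish only, CCT4 was at -0.09 and DNAJC2 at -0.08. In brain the members with the smallest p were CCT7 (0.41), DNAJB12 DLAgn_00103030 (0.30) and DNAJB9 DLAgn_00092300 (0.57) with higher, and HSP47 DLAgn_00039080 (-0.61), DNAJC6 (-0.41) and DNAJB2 (-0.28) with lower means in males. CCT7 averaged 98.0 ± 31.7 CPM in male brains, against 74.9 ± 6.85 CPM in female ones, and its highest value, 154 CPM, was that of shy 1. The highest HSP47 value, 35.1 CPM, was that of shy 4. Without shy 1 and shy 4 CCT7 was at 0.12, DNAJB12 at 0.17, DNAJB9 at 0.49, HSP47 at -0.38, DNAJC6 at -0.13 and DNAJB2 at -0.13. In head kidney, HSPG2 averaged 22.8 ± 1.26 CPM in males, against 18.9 ± 1.41 CPM in females (0.27, SE 0.0969, edgeR adjusted p 1). DNAJB5 DLAgn_00116760 (0.98) and DNAJC4 (0.39) had higher means in males, and DNAJB9 DLAgn_00207700 (-0.35), DNAJB11 (-0.39) and HSPA12B (-0.43) lower ones, all at an edgeR adjusted p of 1.

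The interaction asks whether the bold minus shy change differs between males and females. In pituitary it called 11 of 103 members, against 9.58% of all genes, a share close to the background. CCT3 DLAgn_00213670, CCT4 and CCT2, 3 subunits of the CCT ring, had the smallest p. Their values were lower in both shy males than in any other pituitary. In brain 0 of 106 members were called and in head kidney 0 of 100, against 0% and 0.0191% of all genes, and DESeq2 called 0 in both. At an unadjusted p under 0.05 there were 0 members in brain, against 0.295% and 0.113% of all genes in the positive and negative direction. In head kidney there were 3 positive and 1 negative, against 1.46% and 2.27%. The 2 shy male pituitaries are shy 1 and shy 2, the libraries that stood apart, so the interaction and the difference of these libraries cannot be told apart, and the term could not be fitted without them.

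CCT3 DLAgn_00213670 had 61.5, 59.2 and 51.0 CPM in bold male pituitaries and 50.8 and 56.7 CPM in bold female ones, against 3.65 and 3.80 CPM in shy males and 48.2, 60.7 and 61.6 CPM in shy females. The interaction was 4.01 (SE 0.261, edgeR adjusted p 3.91e-05). The copy CCT3 DLAgn_00251910 had 41.0 and 16.8 CPM in shy males. CCT4 had 142, 134 and 133 CPM in bold males and 140.1 and 151 CPM in bold females, against 27.4 and 19.3 CPM in shy males and 147 to 152 CPM in shy females, an interaction of 2.60 (SE 0.22, edgeR adjusted p 9.27e-05). CCT2 had 171 to 178 CPM in bold males and 152 and 160 CPM in bold females, against 55.1 and 45.9 CPM in shy males and 154 to 197 CPM in shy females, an interaction of 1.96 (SE 0.207, edgeR adjusted p 0.000289). Other subunits were less low in these libraries. CCT5 in shy 1 and shy 2 was 0.32 above and 0.01 below the median of the pituitary libraries on the log2 scale, and CCT6A 0.09 and 0.21 below it.

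The other called members had mostly the same shape. HSF1 DLAgn_00214970 had 7.98, 7.35 and 10.0 CPM in bold males and 6.55 and 7.85 CPM in bold females, against 0 reads in both shy males and 4.94 to 8.10 CPM in shy females. The bold males held 232 reads, so that their level was at least 34.7-fold higher than that of shy males, taking a floor of 3 counts over the group. The other tested copies, HSF1 DLAgn_00238840 and DLAgn_00262580, were not called. DNAJC1 (1.5), DNAJB4 (1.74), DNAJC9 (1.04), HSPE1 (1.37) and HSPA5 (0.82) were also lower in the shy males. HSPA5 had 394 to 406 CPM in bold males and 364 and 385 CPM in bold females, against 286 and 239 CPM in shy males and 380.0 to 484 CPM in shy females. DNAJC5 DLAgn_00223440 (-0.88) and DNAJC5G DLAgn_00073250 (-0.93) were higher there: DNAJC5 had 24.4 to 30.0 CPM in bold males and 23.6 and 27.1 CPM in bold females, against 50.1 and 41.9 CPM in shy males and 22.2 to 25.3 CPM in shy females. CCT3 DLAgn_00213670, CCT4, CCT2, HSF1 DLAgn_00214970 and DNAJC1 stayed called in each alternative that gave a value, and the other 6 were lost in 5 to 11 of them.

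**Figure D5:**
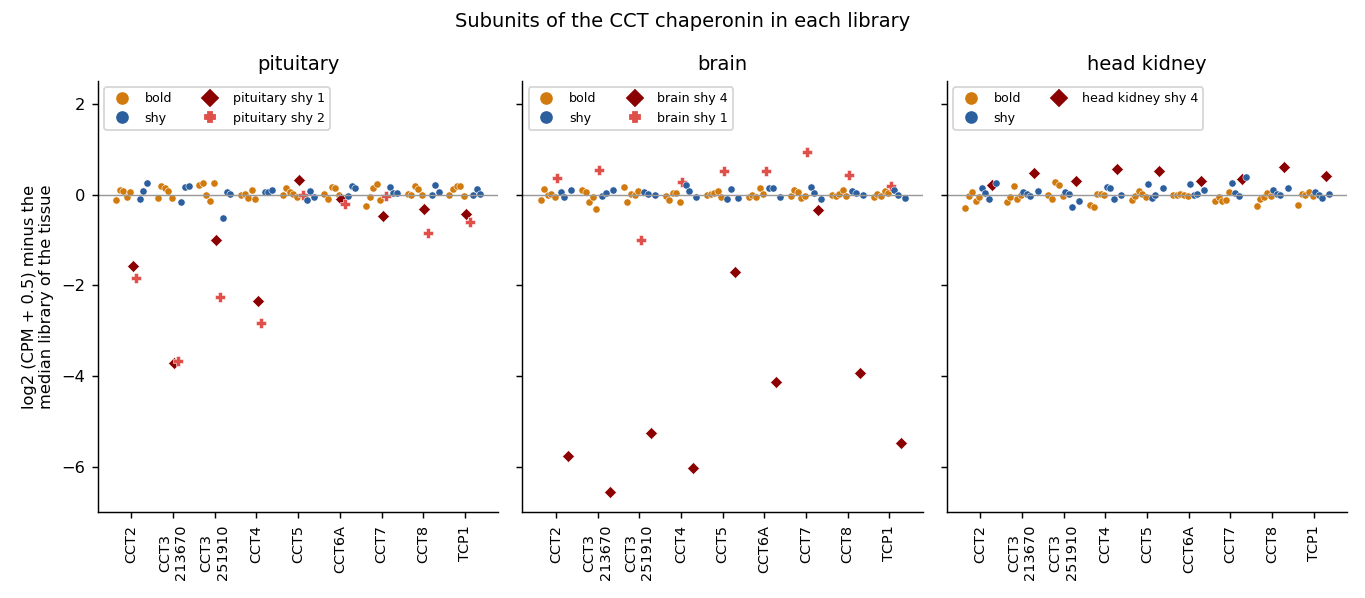
Log2(CPM + 0.5) of each of the 9 CCT identifiers (x axis) minus the median of its tissue (y axis) in pituitary, brain and head kidney, each point a library. In pituitary shy 1 and shy 2, CCT3 DLAgn_00213670 lies at -3.71 and -3.66, CCT4 at -2.35 and -2.84 and CCT5 at 0.32 and -0.01; in brain shy 4, CCT4 lies at -6.03 and CCT7 at -0.33.

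CCT subunits were also uneven in brain shy 4. CCT4 had 9 reads there, and lay 6.03 below the median of the brain libraries on the log2 scale, with CCT3 DLAgn_00213670 at -6.55, CCT2 at -5.76 and TCP1 at -5.46. CCT5 lay at -1.70 and CCT7 at -0.33. Of the other members called in the pituitary interaction, HSF1 DLAgn_00214970 had 0 reads in brain shy 4. Among female brains, shy 4 included, the lowest values of DNAJC1, DNAJB4, HSPE1, HSPA5 and DNAJC9 were 0.783, 1.83, 3.00, 8.35 and 13.4 CPM. Their female medians were 22.1, 23.0, 38.3, 136 and 35.8 CPM. DNAJC5 DLAgn_00223440 and DNAJC5G DLAgn_00073250 reached 129 and 214 CPM, with medians of 61.0 and 171 CPM. In head kidney shy 4, where the class took 0.229% of counts, all 9 identifiers lay above the tissue's median, by 0.21 to 0.61.

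In brain, the 3 members with the smallest interaction p were HSPA12B (-0.80), CCT7 (-0.64) and HSF1 DLAgn_00238840 (-0.80), all at an edgeR adjusted p of 1. CCT7 and HSF1 had their highest values in shy 1. In head kidney they were HSPB1 DLAgn_00039710 (1.44) and the 2 copies of DNAJA1, DLAgn_00182280 (0.55) and DLAgn_00259550 (0.94), at an edgeR adjusted p of 0.999. HSPB1 averaged 3.80 CPM in bold males and 2.498 CPM in bold females, against 3.24 CPM in shy males and 5.58 CPM in shy females.

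Partners of chaperones outside the members were read from lists of co-chaperones, prefoldins, tubulin cofactors, ER genes and mitochondrial proteases. Between bold and shy fish, 0 of 78 were called in pituitary, 0 of 79 in brain and 0 of 74 in head kidney. At an unadjusted p under 0.05, 5 were higher and 15 lower in bold pituitaries, where 10.7% and 7.34% of all genes were, 0 and 2 in bold brains, against 0.515% and 0.848%, and 2 and 4 in bold head kidneys, against 5.81% and 5.4%. Without the libraries that stood apart, 0 were higher and 2 lower in pituitary, against 2.44% and 1.66% of all genes, and 1 and 1 in brain, against 1.78% and 1.5%. Of the 15 tested HSP90 partners 3 had positive changes in pituitary, and of the 15 prefoldins and tubulin cofactors 6 had, against 51.8% of all genes. These counts of positive changes are not given without shy 1 and shy 2. FKBP5, an HSP90 partner at steroid receptors, was at 381 ± 186 CPM in bold pituitaries, against 58.9 ± 53.8 CPM in shy ones (2.72, edgeR adjusted p 0.229), and at 359 ± 213 CPM in bold head kidneys, against 47.8 ± 50.4 CPM in shy ones (3.14, edgeR adjusted p 0.338). LONP1, a mitochondrial protease, was at 1.10 in pituitary. TBCC, a tubulin cofactor, averaged 14.8 ± 0.993 CPM in bold pituitaries, against 21.9 ± 4.01 CPM in shy ones, and PDCL3, a CCT cofactor, 74.5 ± 3.96 CPM and 99.8 ± 22.0 CPM, each without overlap. Without shy 1 and shy 2, and so between females only, the pituitary changes were 2.11 for FKBP5, 0.35 for LONP1, -0.46 for TBCC and -0.19 for PDCL3. In brain TOMM34 (0.40) and CDC37 (1.18) had higher means and ERN1 DLAgn_00249890 (-1.10) and TBCC (-0.86) lower ones in bold fish, and without shy 1 and shy 4 these were at 0.48, 0.77, -0.16 and -0.22. In head kidney HERPUD1 (0.32) had a higher mean, and ERN1 DLAgn_00249890 (-0.56) and VBP1 (-0.32) lower ones.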

How the data were processed

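RNA was measured in 30 libraries of 10 fish. The authors deposited whole read counts for 26719 identifiers, not normalized. Per the labels' protocols, a stranded mRNA kit was used and 50 nt of 1 end were read. Tools listed in the submitters' processing notes include featureCounts 1.6.2, TopHat2 2.1.1 and Bowtie2 2.2.9. Build, annotation and strandedness of the counting: not given in the sources used here. Of the columns, 0 were left unmapped to a sample.

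Counts were fitted by edgeR 4.0.16 (quasi-likelihood, robust, TMM, filterByExpr with a minimum count of 10) in R 4.3.3. Within a tissue the terms were behavior and sex, with a second fit for their interaction. One fit of all libraries, treated as independent, gave tissue contrasts and differences between tissues. Tests were two-sided on the whole table, 17102 genes in pituitary, 18640 in brain, 15741 in head kidney and 20598 over all libraries. P values were adjusted by Benjamini-Hochberg over these. The labels do not tie libraries of different tissues to a fish. The fits were tested on simulated data.

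The members, classes and lists were chosen with earlier results of these data known. Named members are those with the smallest p (4 in each direction between bold and shy, 3 between sexes, 3 in the interaction and in the differences between tissues), the 4 called with the largest change in each direction per tissue, called members where at most 20 were called, the most read of each class, and a fixed set of well-known chaperones. Alternatives were DESeq2 1.42.0, limma 3.58.1 voom with quality weights, median-of-ratios factors, other filters (none, or 1 CPM in 5 libraries), no covariate, non-robust shrinkage, an adjusted p under 0.10, 1 fit of all libraries, reads summed by symbol, no minimum fold change, and leaving out libraries. The ER set with membrane proteins, the CCT share without head kidney shy 4 and the partner genes without libraries that stood apart were added after seeing the data. Plots used matplotlib 3.10.9 (Python 3.11.15). Genome positions and sequences were not used here.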

Additional observations from a re-analysis of the deposited data

Results flagged for a closer look

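Single samples were looked for in 87 groups of values, and 24 groups held a sample far from the others. Chance gives about 1 in 20 independent groups. These groups share libraries, so the 24 cannot be set against that rate. Brain shy 4 accounts for 11 of the class shares. It was lowest for HSP90 (0.0245% of counts), HSP110 (0.00704%), HSP70 (0.043%), the mitochondrial chaperonin (0.00391%), CCT (0.012%), DNAJA (0.0254%), DNAJB (0.035%), HSF (0.00479%) and all members (0.385%), and highest for BAG (0.0415%) and the others (0.0711%). Head kidney shy 4 was highest for HSP110 (0.0216%), HSP70 (0.293%), the mitochondrial chaperonin (0.0181%) and CCT (0.229%). Pituitary shy 1 was highest for HSP110 (0.0279%), and pituitary bold 1 lowest for HSF (0.0108%).

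Of single members, DNAJC5 DLAgn_00127290 was lowest in pituitary shy 2 (3.26 CPM) among shy pituitaries, and BAG1 highest in pituitary shy 1 (42 CPM). In brain, DNAJB12 DLAgn_00103030 (38.6 CPM) and BAG6 DLAgn_00249160 (48.4 CPM) were highest in bold 2 among bold fish, HSF1 DLAgn_00238840 in shy 1 (80.5 CPM) and BAG6 DLAgn_00249160 in shy 4 (253 CPM) among shy fish. DNAJC27 was highest in head kidney bold 1 (13.0 CPM).

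The interaction of behavior and sex in pituitary, tested by edgeR, picked out 11 members: CCT3 DLAgn_00213670 at 4.01, CCT4 at 2.60, CCT2 at 1.96, HSF1 DLAgn_00214970 at 9.00, DNAJC1 at 1.5, DNAJB4 at 1.74, DNAJC9 at 1.04, HSPE1 at 1.37, HSPA5 at 0.82, DNAJC5 DLAgn_00223440 at -0.88 and DNAJC5G DLAgn_00073250 at -0.93. The fitted value of HSF1 depends on how 0 reads are handled. Both shy males are the libraries that stood apart, so behavior, sex and library cannot be told apart here.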

How the results depend on the processing

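No paired analysis was possible because the replicate numbers follow the order of the samples and name no fish. Under the alternatives run, a named member was scored only in the comparison for which it was named, mostly by its small p or large change. Of these values 0 were reversed, 2365 kept their direction and side of the threshold, 53 lost the threshold and 2 gained it. Directions outside these pairs were not scored. CCT4 between bold and shy pituitaries, for example, changed sign without shy 1 and shy 2. Of the counts of called members, 398 equalled the reported count or stayed within 1.5 times of it, and 12 did not. Most reported counts were 0, and each 0 that stayed at 0 is among the 398. DESeq2 called 3 members between bold and shy pituitaries, against 0 by edgeR. For the interaction in pituitary, voom called 7 members, against 11, and leaving out a library gave 5 to 13. It gave 5 without bold 1 or shy 5, 6 without shy 2, shy 4, bold 2 or bold 3, 7 without shy 3 and 13 without shy 1. Leaving out a shy male leaves 1, which is assumed to vary like the other groups, and the interaction without both could not be fitted. With no minimum fold change, 62, 73 and 84 members were called in pituitary, brain and head kidney. The shares of all genes called under these alternatives, DESeq2 included, are not given here. So these counts show how the calls depend on the processing, not how members compare with all genes. The cause of these changes in the counts was not tested, other than the fewer samples and the lower threshold themselves. Members with few reads, such as BAG6-A and the small HSPs, are limited by depth.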
